A study of Mus musculus with 20 samples.

Results

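Contact between 2 neighbouring chromatin domains, the *Lbx1* TAD and the *Fgf8* TAD, was mapped in capture Hi-C of mouse limb buds. Members were all pairs of 5 kb bins with one bin in the *Lbx1* TAD (chr19:45290001-45615000, mm9, 65 bins) and the other in the *Fgf8* TAD (chr19:45650001-45820000, 34 bins). These 2210 bin pairs form a rectangle within the 77028 bin pairs of the captured map, and 2145 of them had a value, since 1 bin of the *Fgf8* TAD (45775001 to 45780000) held none in any map. The ends of both TADs were read from a drawing in the study, so either may be off by a bin or more.

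The 20 libraries were made from forelimb and hindlimb buds at E11.5, not kept apart, and were deposited as 6 merged maps, 1 per genotype. Wild-type embryos (strain label c57bl6.J) were compared with homozygous *Dup*, a tandem duplication, with homozygous *Inv1* and *Inv2*, inversions, and with heterozygous *Dup* and *Inv1*. The study's methods give edited G4 embryonic stem cells (129sv/C57Bl6 hybrid) and aggregation for the mutants, with founders crossed to C57BL/6. A legend to the study's single-cell data instead gives *Dup* a C57Bl6 background and *Inv1* a G4 background. Effects of strain and genotype thus cannot be told apart. The wild-type, *Dup*, *Inv1* and *Inv2* maps each joined 4 libraries of 3 biological replicates, heterozygous *Inv1* joined 3, and heterozygous *Dup* rests on 1 library, whose title names the duplication while its genotype label names a heterozygous inversion. Contact maps hold no expression, so the tissue could not be checked against marker genes. Because replicates are merged, no spread between embryos and no p-value could be had, and every interval given is a 95% counting interval from the recovered read pairs.

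A TAD is a stretch of chromosome whose parts meet each other more often than they meet the neighbouring stretches, and its ends are often bound by CTCF, which halts the extrusion of chromatin loops by cohesin. Contact otherwise falls with distance along the chromosome, so a duplication or inversion that changes this distance changes contact as well. In the limb, enhancers inside the introns of *Fbxw4* drive *Fgf8* in the apical ectodermal ridge (AER), the signalling rim of the limb bud.

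The rows of the rectangle hold the starts of *Lbx1* (45307178 to 45310301, minus strand), a homeodomain factor of migrating muscle precursors, of *Btrc* (45438224 to 45607831, plus strand), which encodes a substrate receptor of an E3 ubiquitin ligase, and of *Gm6807*. Its columns hold the starts of *Fbxw4* (45652744 to 45734802, minus strand), an F-box gene, of the processed transcript *Gm17018*, and of *Fgf8* (45811288 to 45817405, minus strand), which encodes a growth factor secreted by the AER. *Poll*, a DNA polymerase gene, and *Dpcd* start between the TADs, at 45635021 and 45635105. The start of *Lbx1* lies 507.1 kb from that of *Fgf8*.

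The breakpoints decide which parts of the rectangle changed their distance, so the 20 bases targeted by each guide are shown as the mm9 genome reads them, 5′ to 3′ on the targeted strand, with the PAM, the motif that Cas9 needs beside its target, in capitals. Each was found once on chromosome 19, the only chromosome searched.
*Dup*, centromeric cut (45251631 to 45251650, minus strand, intergenic): cccaggaatcgccgatgacaGGG
*Dup* and *Inv2*, telomeric cut (45792723 to 45792742, minus strand, intergenic): ttaaatttctccaagataagAGG
*Inv1*, centromeric cut (45611034 to 45611053, plus strand, intergenic): ggcctcaatacacctccatgGGG
*Inv1*, telomeric cut (45734085 to 45734104, plus strand, in an intron of *Fbxw4*): ggtgacaccagtattcctcgAGG
*Inv2*, centromeric cut (45332272 to 45332291, plus strand, intergenic): ctgacatttagctgtgatcgGGG
The cuts enclose 541.1 kb in *Dup*, 123.1 kb in *Inv1* and 460.4 kb in *Inv2*. *Dup* thus holds every row but ends 24.7 kb short of the *Fgf8* start. *Inv1* turns the *Fbxw4* part of the *Fgf8* TAD and the interval between the TADs, with almost none of the *Lbx1* TAD. In its order the *Fbxw4* part lies between the *Lbx1* TAD and that interval. *Inv2* turns the interval with most of both TADs while leaving *Lbx1* and *Fgf8* outside, at 22.0 kb and 24.7 kb from its cuts.

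Matches of the CTCF core consensus, searched on both strands of mm9, are shown because the outermost of them lie near the strongest wild-type contact of the rectangle. Capitals mark the match and lower case the 20 bases on either side, and all 3 matches within the rectangle lay on the plus strand.
*Lbx1* TAD (45297051 to 45297062, intergenic): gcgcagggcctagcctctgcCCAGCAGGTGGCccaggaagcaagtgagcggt
*Lbx1* TAD (45459537 to 45459548, intron of *Btrc*): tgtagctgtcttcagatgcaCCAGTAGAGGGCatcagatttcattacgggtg
*Fgf8* TAD (45811875 to 45811886, intron of *Fgf8*): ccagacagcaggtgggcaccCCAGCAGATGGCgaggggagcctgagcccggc
The bin directly beyond the *Fgf8* TAD holds a match on the plus strand (45821024 to 45821035) and another on the minus strand (45822167 to 45822178). Since the TAD ends may be off by a bin or more, these could belong to the rectangle. A match was present in 3.08% of bins of the *Lbx1* TAD and 2.94% of the *Fgf8* TAD, against 5.1% of the 392 bins of the captured interval. No match lay in the interval between the TADs, although the study describes a CTCF-associated boundary there. A match is a run of letters, its absence does not mean that binding is absent, and binding was not measured here.

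For the description the rectangle was divided into 91 blocks of 25 kb by 25 kb, in 13 rows counted from the centromeric end of the *Lbx1* TAD and 7 columns counted from the centromeric end of the *Fgf8* TAD, the last column being 20 kb wide. Row 1 holds the *Lbx1* start, row 6 the *Btrc* start and row 10 the *Gm6807* start. Column 1 holds the *Gm17018* start and the 3′ end of *Fbxw4*, column 4 the *Fbxw4* start and the *Inv1* cut, and column 7 *Fgf8*. Row 13 with column 1 is the corner next to *Poll* and *Dpcd*, 60.0 kb apart in the mean, and row 1 with column 7 is the outer corner, 507.5 kb apart.

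In the wild-type, contact relative to distance was lowest in the corner beside the boundary between the TADs and highest at the outer corner. As levels, with the contacts of each bin summing to 1000, these corners were the 2 highest of the 91 blocks, at 4.03 and 4.5, and the lowest were rows 6 and 7 with column 6, both at 1.35. Relative to the mean of all bin pairs of the map at the same distance, the corner next to *Poll* and *Dpcd* reached 0.541 and the outer corner, which joins the *Lbx1* and *Fgf8* starts, 4.68. Of the 91 blocks, 37 lay above 1 and 54 below, with a median of 0.9. From row 1 to row 13 the value went from 2.37 (2.34 to 2.41) to 0.747 (0.735 to 0.759), and it was below 1 from row 5 on, with the interval of row 5 (0.962 to 1.01) still reaching 1. Along the columns it went from 0.92 (0.908 to 0.933) in column 1 to 1.59 (1.57 to 1.61) in column 7, and column 2 was the lowest at 0.908 (0.896 to 0.92), within the interval of column 1. The *Fgf8* column was above 1 in 11 of 13 rows, including rows 9 to 13, where no other column was.

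The single bin pair with the highest wild-type contact joined 45295001 to 45300000, which holds the first consensus match printed above, with 45815001 to 45820000, which holds the *Fgf8* start. It held 394 read pairs and 8.14 times the mean at its distance. Over the whole rectangle the mean of these values was 1.08 (1.07 to 1.09), against 1.22 (1.22 to 1.23) within the *Lbx1* TAD and 1.23 (1.23 to 1.24) within the *Fgf8* TAD. The side of 1 on which the rectangle falls depends on the weighting, since summed contact over summed expectation, in which the near pairs weigh most, gave 0.926.

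**Figure D1:**
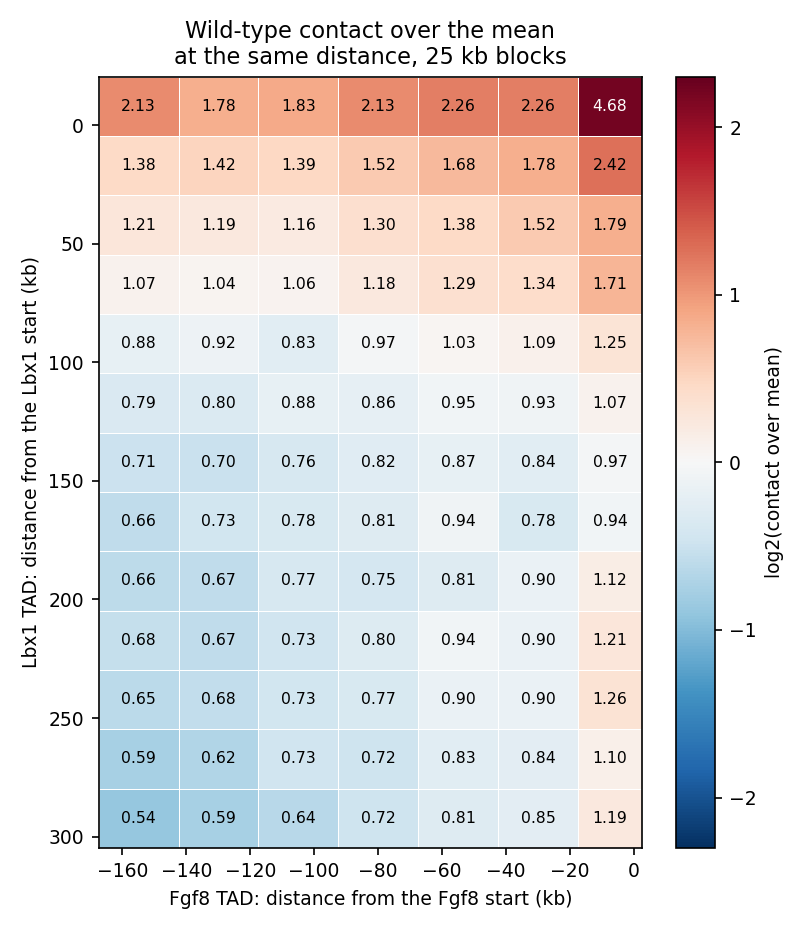
Wild-type contact of each 25 kb block over the mean at the same distance, as numbers and as log2 colours, with the *Lbx1* TAD on the vertical and the *Fgf8* TAD on the horizontal axis in kb from the gene starts. Values run from 0.541 in the lower left corner, next to the boundary between the TADs, to 4.68 in the upper right corner, where the *Lbx1* and *Fgf8* starts meet.

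On a scale on which the contacts of each bin sum to 1000, the mean bin pair of the rectangle held 2.07 in the wild-type, 2.59 in *Dup*, 3.61 in *Inv1*, 3.33 in *Inv2*, 2.49 in heterozygous *Dup* and 3.00 in heterozygous *Inv1*. The *Lbx1* TAD spent 6.83% of its contacts on the *Fgf8* TAD in the wild-type, and 8.55%, 11.9%, 11%, 8.2% and 9.89% in the mutants in the same order. The rectangle held 167506 read pairs in the wild-type and from 111575 to 577149 in the mutants, with between 296 and 44093 in a block of a mutant map, so that the intervals of heterozygous *Dup* are the widest.

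Contact ratios, mutant over wild-type, were taken after the 2 maps had been brought to a common decay with distance, using factors from bins outside the rearrangement. They came to 1.27 (1.26 to 1.27) in *Dup*, 1.61 (1.6 to 1.62) in *Inv1*, 1.57 (1.56 to 1.58) in *Inv2*, 1.18 (1.17 to 1.19) in heterozygous *Dup* and 1.29 (1.28 to 1.3) in heterozygous *Inv1*. Within the TADs the ratios lay at or below 0.967, from 0.912 to 0.967 for the *Lbx1* TAD and from 0.789 to 0.897 for the *Fgf8* TAD. All 5 comparisons share the wild-type map. Because the maps were balanced to equal bin totals, a gain in the rectangle is offset in other pairs of the same bins by construction, so the ratios within the TADs are no separate result.

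A block was called higher where its ratio was at least 1.2 with an interval above 1, and lower where it was at most 0.833 with an interval below 1. In *Dup* 66 of 91 blocks (72.5%) were higher and none lower, while of 576 block pairs at like distances outside the duplicated interval 0% were higher and 0% lower. For *Inv1* 57 blocks (62.6%) were higher and none lower, beside a background of 7.15% higher and 2.95% lower among 881 block pairs. *Inv2* had 36 higher (39.6%) and none lower, beside 4.13% and 0.159% of 629. Heterozygous *Dup* had 55 higher (60.4%) and 2 lower (2.2%), beside 0.694% and 0.694% of 576, and heterozygous *Inv1* had 43 higher (47.3%) and none lower, beside 2.72% and 2.72% of 881. With both maps scaled to their totals only, heterozygous *Dup* had 43 blocks higher (47.3%). With the rearranged interval kept in the scaling it had 38 (41.8%). The background pairs lie among the bin pairs that set the scaling by distance, which holds their mean ratio near 1 by construction. Their shares are thus no independent reference. The genotypes differed in where these blocks lay, and this is described for each in turn, beside the ratio that distance in the rearranged order alone would give. That expectation used the wild-type decay of contact with distance, summed over copies in *Dup*, and holds no boundary. It also sets every wild-type block at the mean for its distance, while these blocks ranged from 0.541 to 4.68 times that mean. A ratio below or above the expectation is thus not a level below or above the mean at the new distance.

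**Figure D2:**
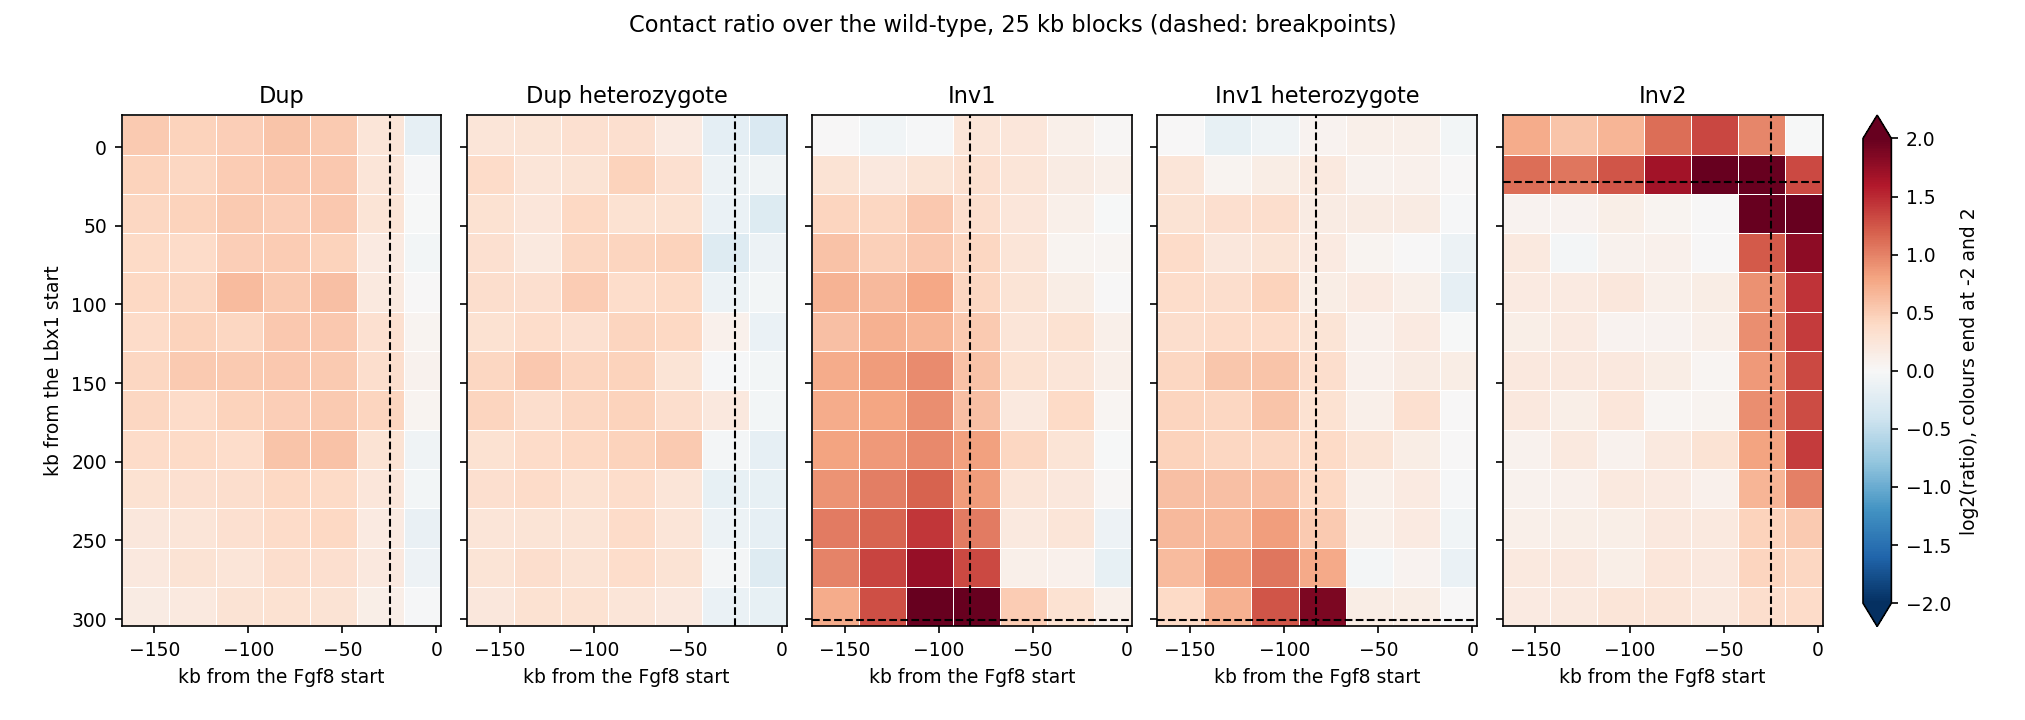
Contact ratio of each 25 kb block over the wild-type (log2 colours, red higher) in the 5 mutant maps, with the *Lbx1* TAD on the vertical and the *Fgf8* TAD on the horizontal axis in kb from the gene starts and the breakpoints dashed. In *Dup*, higher contact covers most of the duplicated columns and is weaker toward the boundary between the TADs. It peaks at the crossing of the breakpoints in *Inv1* (6.53) and lies along the edges beside the breakpoints in *Inv2* (up to 9.53).

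In *Dup*, contact was higher over nearly all of the duplicated part of the rectangle, with a smaller gain toward the boundary between the TADs. Over all columns, the row ratio was 1.29 in row 1, highest in row 7 at 1.36 (1.33 to 1.39) and lowest in row 13 at 1.15 (1.13 to 1.17). The 65 blocks that lay whole within the duplicated interval ranged from 1.12 to 1.55, with a median of 1.35, and 60 of them were called. The highest block joined row 5 with column 3 and went from a level of 1.5 per 1000 in the wild-type to 2.23, a ratio of 1.55 (1.43 to 1.68). Columns 1 to 5, which cover *Fbxw4* and the sequence upstream of it, had ratios of 1.27, 1.29, 1.33, 1.39 and 1.38 over all rows. The ratio then dropped to 1.19 (1.17 to 1.21) in column 6, which the breakpoint divides, and to 0.962 (0.946 to 0.978) in the *Fgf8* column, where 0 of 13 blocks were called in either direction. The lowest block was the outer corner of *Lbx1* with *Fgf8*, at 0.883 (0.849 to 0.918), which was not called. In the 5 kb bins around the telomeric cut, the ratio with the whole *Lbx1* TAD was 1.38 (1.33 to 1.43) at position -34.9 kb from the *Fgf8* start and 1.5 (1.42 to 1.58) at -29.9 kb. It was 1.04 (1.01 to 1.06) at -24.9 kb, in the bin of the cut, and 0.957 (0.927 to 0.988) at -19.9 kb.

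The ratios expected from distance had a much steeper slope in *Dup* than the measured ones. They leave out that in the wild-type row 1 stood at 2.37 and row 13 at 0.747 of the mean at their distance. The part of this in the gaps below was not tested. In the new order the telomeric end of the first copy lies beside the centromeric end of the second, which brings row 1 from 460.0 kb to 81.1 kb from column 5. For row 1 with column 6, which the cut divides, the expected ratio was 3.31 and the measured one 1.19 (1.13 to 1.26). This was 0.359 times the expectation and the lowest such value in *Dup*. For row 1 as a whole, with *Lbx1*, the measured ratio was 1.29 (1.27 to 1.32) against 2.32, and for row 2 it was 1.32 against 2.01. Toward the boundary between the TADs the order turned over, and row 13 measured 1.15 (1.13 to 1.17) against 1.03. The measured ratio was below the expected one in 43 blocks and above it in 48. Balancing to equal bin totals by construction takes a gain over most of a bin's contacts out of its ratios, measured and expected alike. In the copy-number map as deposited, for which no expectation was made, the same 91 blocks ranged from 1.19 to 3.45 with a median of 2.91. The duplicated rows with the columns beyond the cut had a ratio of 1.27 there.

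In *Inv1*, contact was higher between the *Lbx1* TAD and the inverted *Fbxw4* part of the *Fgf8* TAD, and most of all near the breakpoints. Rows outside the inversion met the inverted columns at a ratio of 1.93 (1.91 to 1.95), against 1.13 (1.12 to 1.15) with the columns that kept their place. Of the 36 blocks whole within the former, 32 were higher and the median was 1.67, while 8 of the 36 within the latter were higher, with a median of 1.12. Along the rows, the ratio with the *Fgf8* TAD went from 1.06 (1.04 to 1.08) in row 1, with *Lbx1*, to 2.02 (1.98 to 2.06) in row 12 and 2.66 (2.62 to 2.71) in row 13. The highest block, row 13 with column 4, holds both breakpoints, and its level went from 2.68 to 18.2 per 1000, a ratio of 6.53 (6.25 to 6.83). One bin pair in it, from 45610001 with 45730001, held 8718 read pairs and joins the bins of both cuts. Without the bins of the cuts and their neighbours the ratio of the inverted columns was 1.82. One bin apart from this slope, at -29.9 kb from the *Fgf8* start, met the *Lbx1* TAD at 1.4 (1.31 to 1.48) in *Inv1* and 1.43 (1.34 to 1.53) in heterozygous *Inv1*, where 1.04 and 1.02 were expected. It is not particular to *Inv1*, since the same bin was the highest in *Dup*, at 1.5 (1.42 to 1.58). In heterozygous *Dup* it stood at 1.00 (0.924 to 1.09), and all these ratios share the wild-type map.

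Higher contact in *Inv1* was not limited to the columns that came nearer. The inversion moves column 1 away from the *Lbx1* TAD, from 85.0 kb to 105.2 kb for row 12, and distance alone would lower this block to 0.83 of the wild-type. Its measured ratio was 1.98 (1.9 to 2.07), 2.39 times the expectation and the highest such value in *Inv1*. Of the 13 blocks that came to lie over 10 kb farther apart, 12 were higher, with ratios from 1.01 to 2.05 where 0.83 to 0.977 was expected. The 42 blocks that came over 10 kb nearer ranged from 0.949 to 6.53, of which 37 were higher, beside expected ratios from 1.04 to 4.37. The measured ratio exceeded the expected one in 80 of 91 blocks. The 11 exceptions included the row of *Lbx1*, which met column 2 at 0.949 (0.905 to 0.995) where 1.09 was expected. It met column 3 at 0.985 (0.931 to 1.04) where 1.32 was expected, although this block went from 410.0 kb to 330.2 kb. The lowest block was row 12 with the *Fgf8* column, at 0.893 (0.843 to 0.945), which lies beyond the inversion at an unchanged distance of 232.5 kb.

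The *Inv1* values depend on the scaling by distance. With both maps scaled to their totals only, the rectangle gave 1.81 and 81 blocks were higher in *Inv1*, and in heterozygous *Inv1* the ratio was 1.52 with 74 blocks (81.3%) higher. The *Lbx1* start then met columns 1 to 3 at 1.19, 1.14 and 1.21, and the *Fgf8* column at 1.29 in place of 1.02. Row 13 with column 4 was the highest block with either scaling, at 7.03 with totals only.

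In *Inv2*, higher contact lay along 2 edges of the rectangle, and the large inner part stayed near the wild-type. The 55 blocks whole within the inversion, whose distances did not change, ranged from 0.978 to 1.22 with a median of 1.11, and 1 of them was called. Of the blocks whole within the other zones, the 11 blocks of the *Fgf8* column with inverted rows were all higher, from 1.3 to 5.05, and so were the 5 blocks of row 1 with inverted columns, from 1.48 to 2.53. The highest block, row 2 with column 6, holds both breakpoints and went from 1.91 to 20 per 1000, a ratio of 9.53 (9.06 to 10). The lowest, row 4 with column 2, kept its level, at 1.87 in the wild-type and 1.85 in *Inv2*, with a ratio of 0.978 (0.924 to 1.04). By zone, the mean ratio was 2.66 (2.61 to 2.7) for rows before the inversion with inverted columns, 2.67 (2.64 to 2.71) for inverted rows with columns beyond it, 1.22 (1.21 to 1.23) within it and 1.01 (0.981 to 1.04) for the outer corner. Without the bins at the cuts these came to 2.33, 2.41 and 1.11 for the first 3.

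As a ratio, the gain of *Lbx1* in *Inv2* was smaller than the expectation from distance. That of *Fgf8* went from below its expectation to above it with distance from the junction. In the wild-type the *Lbx1* row already stood at 2.37 times the mean at its distance and the *Fgf8* column at 1.59, which the expectation leaves out. The part of this in the gaps was not tested. Row 1 met columns 1 to 5 at 1.68, 1.48, 1.61, 2.18 and 2.53, beside expected ratios from 2.28 to 6.88. It met column 6, which the cut divides, at 1.97 (1.87 to 2.07) where 9.41 was expected. For the *Fgf8* column, row 3, now 37.5 kb away in place of 457.5 kb, reached 5.05 (4.8 to 5.31) against 10.6. Row 13, which moved from 207.5 kb to 287.5 kb, reached 1.3 (1.25 to 1.37) against 0.719. All 3 blocks that came to lie over 10 kb farther apart were higher, as were all 30 that came nearer. Across the 91 blocks the logarithms of the measured and expected ratios correlated at r = 0.884 in *Inv2*, 0.731 in *Inv1* and 0.673 in *Dup*, a description over blocks of shared bins and maps.

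**Figure D3:**
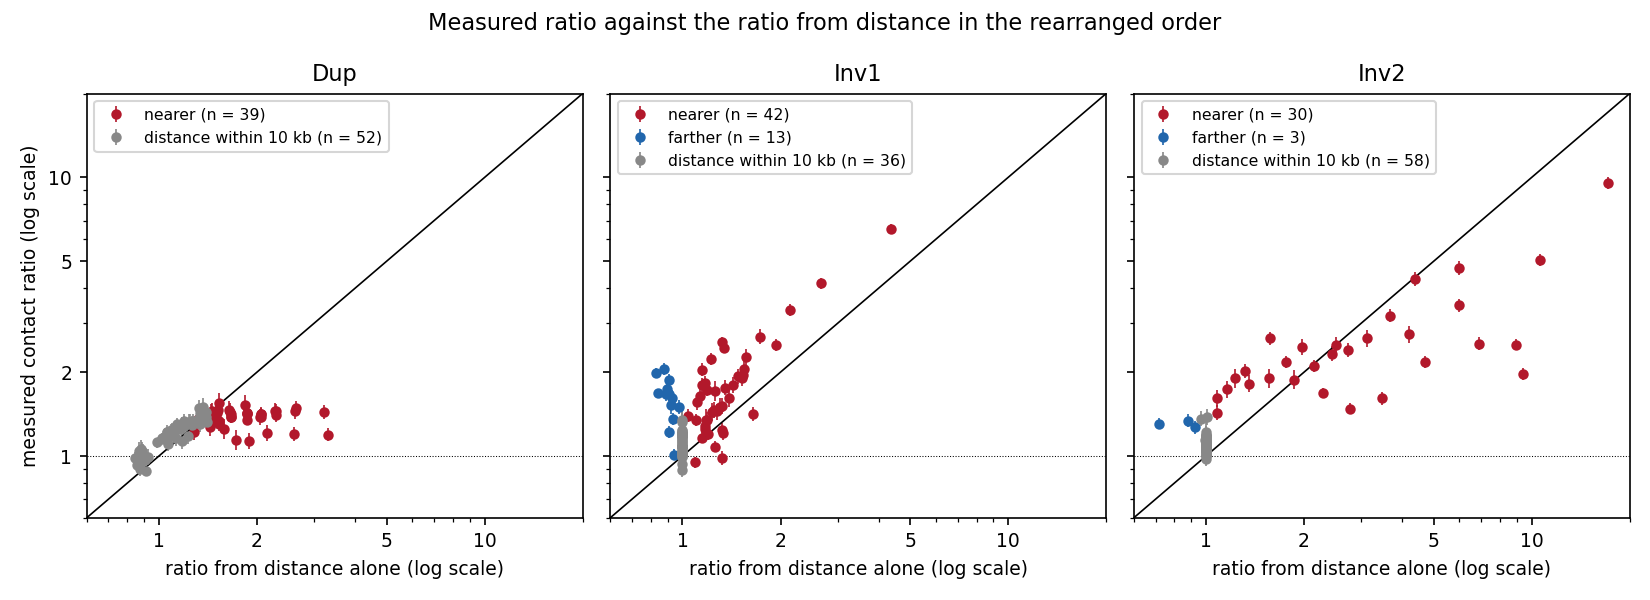
Measured contact ratio of the 91 blocks (points, bars 95% counting intervals) against the ratio from distance in the rearranged order, both on log scales, with the line of equality and the blocks coloured by whether they came over 10 kb nearer or farther. *Dup* stays between 0.883 and 1.55 while the expectation reaches 3.31, the 13 farther blocks of *Inv1* lie above the line, and *Inv2* crosses the line.

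**Figure D4:**
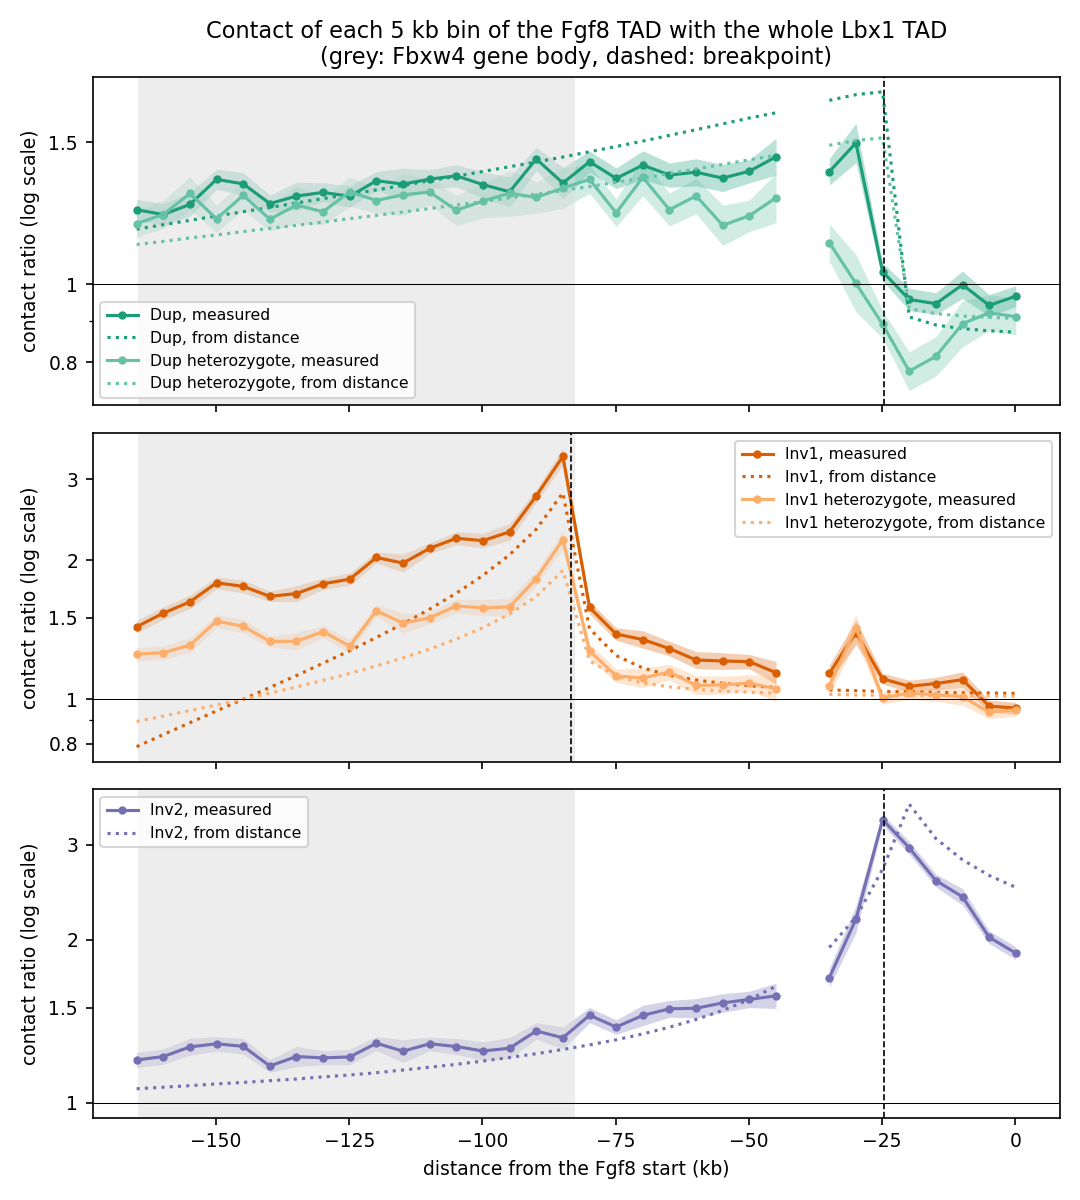
Contact ratio of each 5 kb bin of the *Fgf8* TAD with the whole *Lbx1* TAD (log scale, bands 95% counting intervals), measured and from distance alone, against the distance from the *Fgf8* start in kb, with the *Fbxw4* gene body in grey and a gap at the bin without values. *Dup* drops from 1.38 and 1.5 to 0.957 across its cut, *Inv1* climbs over *Fbxw4* to its cut while the distance curve starts below 1, and *Inv2* is highest beside its cut.

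The starts of genes followed these patterns. *Lbx1* with *Fgf8*, the outer corner, held 4.50 per 1000 in the wild-type, 3.96 in *Dup*, 5.61 in *Inv1*, 4.91 in *Inv2*, 3.90 in heterozygous *Dup* and 4.89 in heterozygous *Inv1*. Its ratio was 1.02 (0.984 to 1.06) in *Inv1* and 0.997 (0.96 to 1.04) in *Inv2*, neither called, and it was called lower in heterozygous *Dup*, at 0.813 (0.76 to 0.871). These calls depend on the scaling, since with totals only heterozygous *Dup* stood at 0.834 and was not called while *Inv1* was called higher at 1.29. In the copy-number maps as deposited the ratio was 1.2 in *Dup* and 0.993 (0.928 to 1.06) in heterozygous *Dup*. This was the strongest wild-type block and the 1 block whose row and column both lay whole outside *Inv2*.

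*Lbx1* with the block of the *Fbxw4* start held 2.49 per 1000 in the wild-type, 3.57 in *Dup*, 3.54 in *Inv1*, 5.75 in *Inv2*, 3.27 in heterozygous *Dup* and 2.96 in heterozygous *Inv1*. Its ratios were 1.49 (1.42 to 1.57) in *Dup*, 1.2 (1.14 to 1.26) in *Inv1*, just under the threshold before rounding, and 2.18 (2.07 to 2.29) in *Inv2*. *Inv2* was the highest of these, but the order depends on the processing. With totals only *Dup* stood at 1.43 and *Inv1*, then called higher, at 1.48, and with the copy number kept *Dup* stood at 3.42. The 5 kb bin of the *Lbx1* start with the 17 bins of the *Fbxw4* gene body, whose introns hold AER enhancers, gave 1.32 (1.25 to 1.39) in *Dup*, 1.01 (0.954 to 1.07) in *Inv1*, 2.13 (2.02 to 2.25) in *Inv2*, 1.23 (1.14 to 1.32) in heterozygous *Dup* and 0.929 (0.872 to 0.99) in heterozygous *Inv1*. With totals only the last turned to 1.11, and *Inv1* stood at 1.21.

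*Btrc* differed from *Lbx1* in which inversion raised its contact with *Fbxw4*. The bin of its start with the *Fbxw4* gene body gave 1.28 (1.17 to 1.4) in *Dup*, 1.47 (1.34 to 1.62) in *Inv1* and 1.03 (0.932 to 1.14) in *Inv2*. Between the inversions, *Inv2* was thus the higher for *Lbx1* and *Inv1* for *Btrc*. The place of *Dup* depends on its normalization, since with the copy number kept its gene body ratios were 3.01 for *Lbx1* and 2.88 for *Btrc*, above both inversions. With *Fgf8* the *Btrc* start block reached 2.65 (2.47 to 2.84) in *Inv2*, near the 3.13 expected from distance, while *Dup* and *Inv1* stood at 1.04 (0.959 to 1.12) and 1.09 (1.01 to 1.18). With totals only *Inv1* was called higher here, at 1.31. The block of *Gm6807* with *Gm17018* reached 1.87 (1.77 to 1.97) in *Inv1* where 0.91 was expected.

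With the scaling by distance, heterozygous *Inv1* lay midway between the wild-type and the homozygote. Over the 57 blocks called in the homozygote, it showed a median of 48.7% of the homozygous change, from 25.6% to 93%, and every block lay between the wild-type and the homozygote. For the rows outside with the inverted columns the ratio was 1.45 (1.44 to 1.47), which is 48.8% of the homozygous change, beside 50.1% for the expectation from distance. With totals only the heterozygote lay nearer to the homozygote. These rows then met the inverted columns at 1.7 against 2.14, and the columns that kept their place at 1.24 against 1.31. Its highest block was again row 13 with column 4, at 3.69 (3.52 to 3.87), and its lowest was row 5 with the *Fgf8* column, at 0.883 (0.81 to 0.963).

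In heterozygous *Dup*, the 66 blocks called in the homozygote showed a median of 77% of the homozygous change, but the values spread from -42.7% to 126%. The 4 blocks that lay on the other side of the wild-type were all in column 6, which the cut divides. For the duplicated zone the share was 73.4%, beside 70.3% for the expectation from distance after the same balancing. In the copy-number maps as deposited this zone stood at 2.02 in the heterozygote and 2.98 in the homozygote. Columns 1 to 5 had ratios from 1.24 to 1.31, where the homozygote had 1.27 to 1.39, and the highest block was row 7 with column 2, at 1.46 (1.36 to 1.56). The maps differed most at the telomeric end, where column 6 stood at 0.942 (0.916 to 0.969) against 1.19 (1.17 to 1.21) in the homozygote, and the *Fgf8* column at 0.888 (0.863 to 0.913) against 0.962. Both blocks called lower were in the *Fgf8* column, in row 1 and row 3, at 0.813 and 0.831 (0.747 to 0.924). With totals only both calls were lost, at 0.834 and 0.853, and 2 others were made (row 4 with column 6 at 0.831 and row 12 with column 7 at 0.83). In the copy-number map both stood at 0.993 and 0.997. The bins at -29.9 kb and -19.9 kb from the *Fgf8* start met the *Lbx1* TAD at 1.00 (0.924 to 1.09) and 0.78 (0.738 to 0.824) of the wild-type.

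The read pairs of heterozygous *Dup* also stood apart at this place. Per bin, relative to the wild-type and to the bins outside the duplicated interval, the median was 1.58 in the *Lbx1* TAD and 1.55 in the duplicated part of the *Fgf8* TAD, and 2.05 and 2.06 in homozygous *Dup*. Directly beyond the telomeric cut, however, 9 bins in a row (45795001 to 45840000, 45 kb with *Fgf8*) held 0.414 to 0.648 of the wild-type in the heterozygote, with a median of 0.557, and the next 10 bins had a median of 0.988. In these 9 bins the medians of the other 4 mutant maps were 1.09 in *Dup*, 1 in *Inv1*, 1.05 in *Inv2* and 1.05 in heterozygous *Inv1*. This run of bins was found after the values were seen, it rests on 1 library, and its part in the contact ratios of columns 6 and 7 was not tested.

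**Figure D5:**
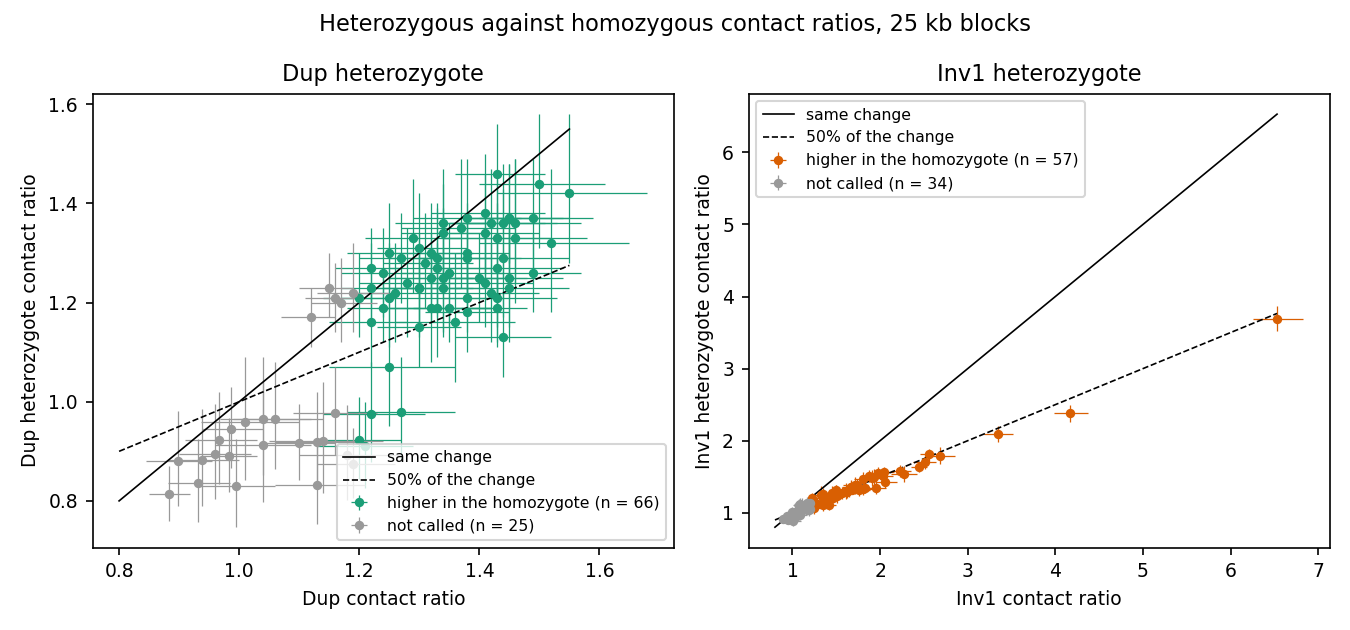
Contact ratios of the 91 blocks in the heterozygotes (vertical) against the homozygotes (horizontal), bars 95% counting intervals, with lines for an equal change and for 50% of the change. With the scaling by distance used here, heterozygous *Inv1* follows the 50% line (median 48.7% over 57 blocks), and heterozygous *Dup* scatters around a median of 77% over 66 blocks.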

How the data were processed

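Capture Hi-C values were used as deposited. After trimming, the authors ran HiCUP with Bowtie2 2.4.2 against mm9, merged replicates and deposited contact signal in 5 kb bins. It was KR balanced with Juicer tools 1.19.02 for the wild-type and the inversions, and LOIC normalized with iced for *Dup*, which keeps the copy number. For heterozygous *Dup* the sources used here do not give the copy number that was set. The 3 deposited subtraction maps hold the authors' own comparison and were not used. Reads stayed mapped to the reference order.

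Bin factors were solved from the signal, which returned whole read pairs for 100% of values within 0.01 (3350758 to 13101700 per map). *Dup* maps were balanced to equal bin totals. Each mutant and the wild-type were scaled jointly per distance without the rearranged interval, then to a total of 1000000. Intervals span 1.96 standard errors and cover counting error only. Background block pairs needed values in 80% of bin pairs. Expected maps passed through the same balancing and scaling. The steps were tested on simulated data. Genes and cuts came from GENCODE and exact matches on mm9. The genes named were those starting in the rectangle and the coding genes between the TADs, and the blocks named those with gene starts and the extremes of each map, while other blocks were named after their values were seen. Members and lists were chosen with earlier results of these data known. Alternatives covered scaling, copy number, bin factors, fold, block size, cuts and decay. Python 3.11.15, numpy 2.4.6, pandas 2.3.3 and matplotlib 3.10.9 were used.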

Additional observations from a re-analysis of the deposited data

How the results depend on the processing

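No paired analysis was possible because the deposited maps merge the replicates of each genotype, and for the same reason no replicate could be left out. Of 152 values under alternatives, 70 stayed within their counting interval or within 1.5 times the count, 78 moved and 4 reversed. Among those that moved, the outer corner zone of *Inv2*, whose interval held 1, went from 1.01 to 0.87 with the rearranged interval kept in the scaling. The zones below are named rows first, inside or outside the rearranged interval. Depth limits heterozygous *Dup* most, and the spread between embryos is unknown in every map.

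For the wild-type rectangle, the median in place of the mean at each distance gave 1.3, and summed contact over summed expectation, an alternative chosen after seeing the data, reversed it to 0.926.

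Scaling to the total only gave whole-rectangle ratios of 1.25 in *Dup*, 1.81 in *Inv1*, 1.64 in *Inv2*, 1.16 in heterozygous *Dup* and 1.52 in heterozygous *Inv1*, where the share of blocks higher became 81.3%. By zone it gave 1.31 inside with inside and 0.94 inside with outside in *Dup*, 1.21 inside with inside in heterozygous *Dup*, 2.14 outside with inside and 1.31 outside with outside in *Inv1*, and 1.7 and 1.24 for these in heterozygous *Inv1*. In *Inv2* it gave 2.91 outside with inside, 1.14 outside with outside, 1.25 inside with inside and 2.83 inside with outside.

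Keeping the rearranged interval in the scaling gave 1.22, 1.58, 1.5, 1.13 and 1.28 for the rectangle in the same order of maps. The share of blocks lower became 1.1% in *Dup* and 5.49% in heterozygous *Dup*. *Inv2* had 52 blocks higher in place of 36, and heterozygous *Dup* had 38 in place of 55. By zone it gave 1.28 and 0.908 in *Dup*, 1.19 and 0.818 in heterozygous *Dup* (inside with inside, inside with outside), 1.9 outside with inside in *Inv1*, and 2.19 outside with inside, 0.87 outside with outside and 2.41 inside with outside in *Inv2*.

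With the LOIC maps as deposited the rectangle gave 2.71 in *Dup* and 1.86 in heterozygous *Dup*, with 0.0% of blocks lower in the latter. Inside with inside gave 2.98 and 2.02, and inside with outside reversed to 1.27 and 1.04.

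Read pairs without bin factors gave 2.74, 1.64, 1.76, 1.88 and 1.32 for the rectangle in the order above, with 9.89% of blocks lower in heterozygous *Dup*. Inside with inside gave 3.05 in *Dup* and 2.14 in its heterozygote, and inside with outside reversed to 1.4 in *Dup* and stood at 0.762 in the heterozygote. Outside with inside and outside with outside gave 1.96 and 1.16 in *Inv1* and 1.48 and 1.07 in its heterozygote. *Inv2* gave 2.59 outside with inside, 1.09 outside with outside, 1.36 inside with inside and 3.01 inside with outside.

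The median over bin pairs of the ratio gave 1.29, 1.36, 1.2, 1.2 and 1.19 for the rectangle. A fold of 1.5 left 2.2% of blocks higher in *Dup*, 38.5% in *Inv1*, 0.0% in heterozygous *Dup* (also 0.0% lower) and 14.3% in heterozygous *Inv1*. Blocks of 10 kb gave 0.357% lower in *Dup*, 0.891% in *Inv1*, 4.81% in heterozygous *Dup* and 1.07% in heterozygous *Inv1*, and blocks of 50 kb gave 0.0% lower in heterozygous *Dup*.

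Without the bins at the cuts, outside with inside gave 1.82 in *Inv1*, 1.41 in heterozygous *Inv1* and 2.33 in *Inv2*, inside with inside 1.11 in *Inv2* and 1.26 in heterozygous *Dup*, and inside with outside 2.41 in *Inv2*. With the decay taken outside the rearranged interval, *Inv2* over its expectation was 0.527 outside with inside and 0.881 inside with outside. Apart from the effect that each alternative has by its construction, the cause of these shifts was not tested.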
